A study of Mus musculus with 6 samples.

Results

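The genes of the respiratory chain, which cells build from 2 genomes, were compared between Sf3b3 knockdown and control cells of the mouse liver tumour line HCC3-4. They were taken by a symbol rule, as every gene of the deposited table that starts with Nduf, Uqcr, Cox4i, Cox5, Cox6, Cox7, Cox8, Atp5 or mt-. This choice was made with earlier results of these data known. The rule took 96 of 11866 listed genes, and all 96 passed the filter of a mean of at least 1 FPKM (fragments per unit of gene length and of library size) that left 10770 genes for the test. By function, 71 are nuclear genes for subunits (36 of complex I, 8 of complex III, 11 of complex IV and 16 of complex V), 8 are Nduf assembly factors and 3 others share a prefix (Atp5s, Cox7a2l and Ndufb1-ps). The other members are encoded by the mitochondrial genome, namely 13 mRNAs and 1 rRNA, mt-Rnr2. The second mitochondrial rRNA, mt-Rnr1, and the 22 mitochondrial tRNAs were not analysed here.

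HCC3-4 was derived from liver tumours of MYC transgenic mice, so both groups share that origin. The KD group (n = 3 libraries) stably carried a short hairpin RNA against Sf3b3, a subunit of the splicing factor SF3b, and the PLKO group (n = 3) carried the pLKO.1-TRC control vector. The labels name neither separate cultures within a group nor a second hairpin or rescue, so the spread behind each p-value is that of these libraries and may be technical. RNA was selected by poly(A) capture, and in bulk RNA fewer cells of a kind and less RNA per cell cannot be told apart.

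The respiratory chain passes electrons from NADH and succinate through complexes I to IV to oxygen, and complex V uses the resulting proton gradient to make ATP. Most subunits are encoded in the nucleus, translated in the cytosol and imported, while a small core of each proton-pumping complex is encoded by the mitochondrial genome. That genome is transcribed as long RNAs from both strands, from which tRNAs are cut out so that the mRNAs and rRNAs between them are released. The nuclear factors NRF1, GABP and YY1 are known to bind the promoters of many nuclear subunit genes.

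On the mitochondrial genome the member that passed the test is followed by mt-Tl1, a leucine tRNA gene, and then by mt-Nd1. The tRNA gene is shown because its ends are the borders of both neighbours (GRCm38, chrM:2676-2750, plus strand). The second sequence is the end of mt-Atp8 and the start of mt-Atp6 (chrM:7927-7969, plus strand), 43 bases that the 2 genes share and that recur without a mismatch in Gm10925, a gene model on chromosome 1, so that reads within them fit 3 gene models.
mt-Tl1: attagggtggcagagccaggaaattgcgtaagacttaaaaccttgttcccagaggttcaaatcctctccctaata
mt-Atp8 and mt-Atp6 overlap: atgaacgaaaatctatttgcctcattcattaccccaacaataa

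For the nuclear genes, promoter windows from 250 bases before to 50 bases after the RefSeq start (GRCm38.p6) were found for 60 of the 71 subunit genes. Printed here are those of 4 subunits that were called once the replicate numbers were taken as pairs, whose values follow: Ndufb10 (chr17:24724374-24724673), Ndufs4 (chr13:114388045-114388344), Ndufc1 (chr3:51408906-51409205) and Uqcrh (chr4:116075021-116075320), all on the minus strand. Ndufs1, a subunit that was called there too, had no window and is not printed. Capitals mark the YY1 letters AAGATGGC in Ndufs4 and Ndufc1 and the GABP letters CCGGAAG, read on the opposite strand, in Uqcrh. Ndufb10 holds none of the 3 motifs searched. The third motif was NRF1, spelled GCGC, any base, TGCGC, and both strands were searched for each.
Ndufb10: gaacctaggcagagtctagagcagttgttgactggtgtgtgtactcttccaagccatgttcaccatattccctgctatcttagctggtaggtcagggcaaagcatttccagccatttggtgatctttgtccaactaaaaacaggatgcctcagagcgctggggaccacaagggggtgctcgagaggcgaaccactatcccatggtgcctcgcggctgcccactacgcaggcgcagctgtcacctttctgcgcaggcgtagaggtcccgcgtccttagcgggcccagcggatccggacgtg
Ndufs4: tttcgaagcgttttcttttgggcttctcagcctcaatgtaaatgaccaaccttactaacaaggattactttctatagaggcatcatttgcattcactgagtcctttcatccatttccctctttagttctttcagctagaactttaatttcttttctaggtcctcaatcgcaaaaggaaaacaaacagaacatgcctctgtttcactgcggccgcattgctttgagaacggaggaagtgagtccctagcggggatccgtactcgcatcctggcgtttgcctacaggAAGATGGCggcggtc
Ndufc1: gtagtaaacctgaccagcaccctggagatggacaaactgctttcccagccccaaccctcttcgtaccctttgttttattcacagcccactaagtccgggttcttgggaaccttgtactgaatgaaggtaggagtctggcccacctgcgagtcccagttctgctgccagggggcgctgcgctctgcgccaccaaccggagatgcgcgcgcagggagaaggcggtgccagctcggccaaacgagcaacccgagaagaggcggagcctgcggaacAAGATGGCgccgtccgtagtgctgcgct
Uqcrh: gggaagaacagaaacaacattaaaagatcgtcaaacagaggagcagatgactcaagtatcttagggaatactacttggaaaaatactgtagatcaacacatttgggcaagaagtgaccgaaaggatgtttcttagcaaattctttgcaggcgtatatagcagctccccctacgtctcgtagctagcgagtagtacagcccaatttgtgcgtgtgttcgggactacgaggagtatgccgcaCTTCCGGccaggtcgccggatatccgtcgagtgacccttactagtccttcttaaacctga

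At least 1 of the 3 motifs lay in 32 of the 60 windows (53.3%), against 19.5% of 17491 windows of protein-coding genes. The NRF1 letters were found in 14 windows (23.3% against 6.60%), the GABP letters in 13 (21.7% against 11.9%) and the YY1 letters in 9 (15.0% against 3.22%). Of the 9 windows with the YY1 letters, 7 belong to complex I (of 32 windows) and 2 to complex V (of 14), with 0 of 5 for complex III and 0 of 9 for complex IV. These matches are letters in a window, with no measurement of binding.

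Between 14226259 and 16439461 reads per library fell on the 10969 genes whose deposited values gave whole reads. Sf3b3 fell in KD, with 22.6, 28.7 and 29.2 FPKM in PLKO 1, 2 and 3 and 10.3, 9.56 and 13.9 FPKM in KD 1, 2 and 3 (log2 fold change -1.26, SE 0.23, limma adjusted p = 0.0372). Of the markers looked for, 0 of 6 hepatocyte genes, 0 of 3 endothelial genes and 1 of 3 liver tumour genes (Afp, below the filter) were listed, as were 2 of 4 epithelial, 3 of 4 fibroblast and 1 of 3 leukocyte genes. The epithelial Krt8 had a mean of 68.2 ± 13.4 FPKM in PLKO against 62.7 ± 18.1 in KD (± SD over 3 libraries, here and below). Krt18, its partner keratin, had a mean of 5.95 ± 0.672 FPKM in PLKO against 9.11 ± 0.619 in KD without overlap (limma adjusted p = 0.101). The leukocyte gene Cd68 had a mean of 23.6 ± 16.8 FPKM in PLKO against 69.7 ± 25.3 in KD and the fibroblast gene Pdgfrb a mean of 63.02 ± 14.1 FPKM in PLKO against 32.5 ± 8.31 in KD (limma adjusted p = 0.0755 and 0.0643). Taking the replicate numbers as pairs gave 0.00183 for Cd68 and 0.0115 for Pdgfrb, and any part of other cell types in the results was not tested. The liver label could therefore not be checked from hepatocyte markers.

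Of the 96 members 1 rose and 0 fell at a limma adjusted p under 0.05, where 2.92% of all tested genes were called (1.12% higher, 1.79% lower). The gene that rose was mt-Rnr2, the large rRNA of the mitochondrial ribosome. At an unadjusted p under 0.05, 7 members were higher and 9 lower in KD, which is 16.7% of them against 27.6% of all tested genes. With voom on reads recovered from the table, 1 member was called higher (mt-Rnr2) and 1 lower (Ndufs1). Without PLKO 1, PLKO 2, KD 1 or KD 2, no gene of the whole table was called. The numbers 1 to 3 that the groups share were also fitted as pairs (the replicate block), a pairing that no label gives. Then 2 members were called higher (mt-Rnr2 and Uqcrh) and 5 lower (Ndufs1, Ndufb10, Ndufs4, Ndufc1 and Ndufaf5), against 8.19% and 11.1% of all tested genes (19.3% in all). The groups did not overlap for 8 members with KD higher and 15 with KD lower. That is 24.0% of the members, against 32.1% of all tested genes (13.4% with KD higher and 18.8% with KD lower).

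mt-Rnr2 (chrM:1094-2675 on GRCm38, a single exon) had 332, 254 and 752 FPKM in PLKO 1, 2 and 3 and 2795, 2932 and 1677 FPKM in KD 1, 2 and 3. Every KD library lay above every PLKO library, PLKO 3 being the highest of its group and KD 3 the lowest of its own. The means were 446 ± 268 FPKM (SD, n = 3) and 2468 ± 688 FPKM (SD, n = 3). The log2 fold change was 2.59 (SE 0.40, 95% confidence interval 1.68 to 3.49), a 6.01-fold higher level, and limma gave an adjusted p of 0.0314 (0.00183 with the replicate block). An exact permutation test (two-sided) on the single libraries returned p = 0.1, which is the smallest value possible with 3 libraries a group. On leaving out PLKO 1, PLKO 2, KD 1 or KD 2 its log2 fold change came to 2.46, 2.26, 2.48 and 2.44 in turn (limma adjusted p = 0.125, 0.117, 0.131 and 0.188). With the libraries numbered 3 set aside in both groups, the log2 fold change reached 3.30 (limma adjusted p = 0.000811).

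Reads on the rRNA numbered 9502, 6714 and 18821 in the PLKO libraries against 68375, 73468 and 46571 in the KD libraries. That is 0.0598%, 0.0410% and 0.124% of the recovered reads (those on genes that gave whole reads) in PLKO and 0.481%, 0.489% and 0.283% in KD. Set against mt-Nd1, its neighbour across the tRNA gene mt-Tl1, the FPKM of mt-Rnr2 came to 12.7%, 12.2% and 18.9% in PLKO and to 111%, 67.5% and 43.1% in KD. The ratio of the rRNA to the adjacent mRNA therefore differed between the groups without overlap, as did the level itself. No stretch of another annotated transcript matched mt-Rnr2 at 99% identity or more, the longest match being 435 bases of Gm20594 on chromosome 6 at 88.5%. Poly(A) capture reads only the share of this rRNA that is captured, and a larger amount cannot be told apart from a larger captured share. The total of the rRNA was not measured.

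**Figure D1:**
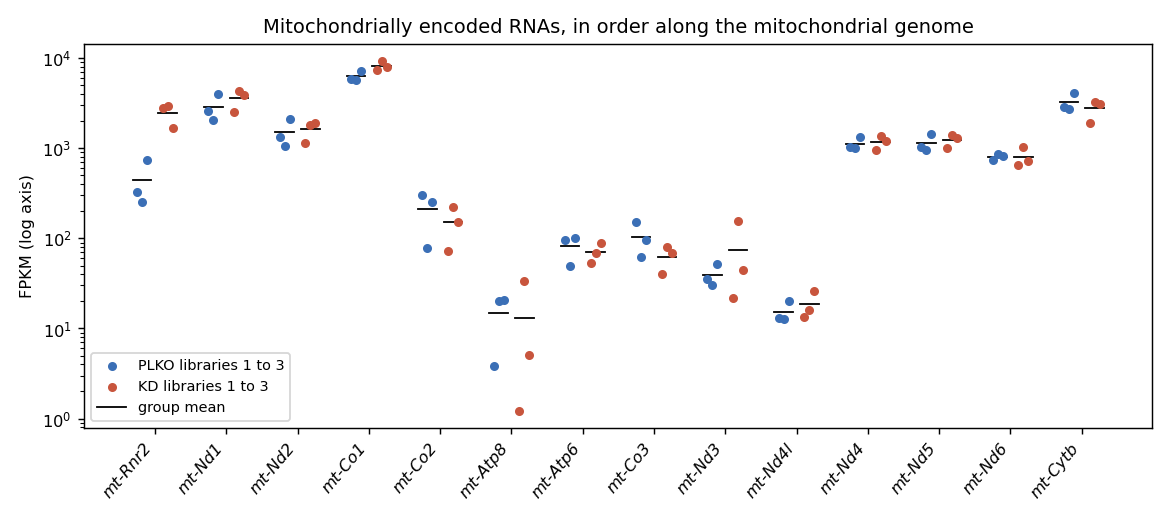
FPKM (log axis) of the mitochondrially encoded genes in the 3 PLKO and 3 KD libraries, 1 point per library. The KD points of mt-Rnr2 (1677 to 2932 FPKM) lie above its PLKO points, while the mRNAs other than mt-Co1 overlap between the groups.

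None of the 13 mitochondrial mRNAs passed the test: 7 had log2 fold changes above 0 and 6 below, with a median of 0.06 against -0.04 over all tested genes. Without KD 2 the median was -0.19. Their limma adjusted p ran from 0.247 to 0.937, and voom and the fit with the replicate block called 0 as well. An unadjusted p under 0.05 was reached by 0 of 13, against 27.6% of all tested genes. In 1 of 13, mt-Co1, the groups did not overlap (7.69%, against 32.1% of all tested genes).

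The mRNAs of complex I are those of its membrane arm. mt-Nd1 had 2604, 2076 and 3981 FPKM in PLKO 1, 2 and 3 and 2524, 4346 and 3888 FPKM in KD 1, 2 and 3. KD 1 lay among the PLKO values and the other 2 KD libraries near PLKO 3 (log2 fold change 0.33, interval -0.37 to 1.02). mt-Nd2 had a mean of 1512 ± 546 FPKM in PLKO against 1619 ± 418 in KD, and mt-Nd4 had a mean of 1128 ± 172 FPKM in PLKO against 1183 ± 218 in KD. mt-Nd5 had a mean of 1134 ± 259 FPKM in PLKO against 1242 ± 199.7 in KD. The log2 fold changes of these 3 were 0.12, 0.06 and 0.14. mt-Nd6, the mRNA of the set that lies on the minus strand, had a mean of 808 ± 54.7 FPKM in PLKO against 804 ± 195 in KD (log2 fold change -0.03), and whether the counting used strand is not given in the sources used here. mt-Nd3 had 35.1, 30.8 and 51.3 FPKM in PLKO and 21.7, 156 and 44.4 FPKM in KD, where KD 2 stood apart from the other libraries (log2 fold change 0.48, interval -0.88 to 1.84). mt-Nd4l had a mean of 15.3 ± 4.23 FPKM in PLKO against 18.5 ± 6.55 in KD (log2 fold change 0.25).

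In complex III, mt-Cytb, the cytochrome b that oxidises ubiquinol, had 2869, 2747 and 4124 FPKM in PLKO and 1914, 3271 and 3146 FPKM in KD. The ranges overlapped, with KD 1 the lowest of the 6 (log2 fold change -0.24, limma adjusted p = 0.599). In complex IV, mt-Co1, the subunit that holds the site of oxygen reduction, had 5956, 5787 and 7303 FPKM in PLKO and 7436, 9225 and 7929 FPKM in KD. All 3 KD values lay above the PLKO values, KD 1 only slightly above PLKO 3 (log2 fold change 0.37, interval -0.12 to 0.86, limma adjusted p = 0.291). mt-Co2, which receives electrons from cytochrome c, had 307, 78.1 and 253 FPKM in PLKO and 72.7, 225 and 153 FPKM in KD (log2 fold change -0.43). mt-Co3 had 152, 62.8 and 95.6 FPKM in PLKO and 40.2, 80.03 and 68.4 FPKM in KD (log2 fold change -0.69, limma adjusted p = 0.247). For both, PLKO 1 was the highest library and KD 1 the lowest, with the other libraries overlapping. In complex V, mt-Atp6, part of the proton channel, had a mean of 82.3 ± 28.5 FPKM in PLKO against 70.4 ± 18.1 in KD (log2 fold change -0.19). mt-Atp8 rested on 12, 67 and 65 reads in the controls against 2, 106 and 16 in KD, and its log2 fold change of -0.99 had an interval of -3.44 to 1.47.

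Apart from mt-Atp8, the mitochondrial mRNAs with a near-identical nuclear copy had the lower levels in the table. A whole copy, at 99% identity or more over at least 90% of the gene, is annotated on chromosome 1 for 5 of the 13: mt-Co2 (Gm28661), mt-Co3 (Gm28437), mt-Atp6 (Gm10925), mt-Nd3 (Gm28438) and mt-Nd4l (Gm10222). Only annotated transcripts were searched, so a copy outside them would be missed. These 5 had PLKO means between 15.3 and 213 FPKM. mt-Atp8, for which the search found no whole copy, was lower still, with a PLKO mean of 14.9 FPKM. The 7 mRNAs left when mt-Atp8 is also set aside had PLKO means between 808 and 6349 FPKM, with no overlap with the 5. Partial copies at that identity cover 876 of 1378 bases of mt-Nd4 and 483 of 1545 bases of mt-Co1. How the counting treated reads that match several places is not given in the sources used here, so levels of the 5 genes are uncertain. Of the copies, Gm10925 and Gm10222 were listed. Gm10925 had a mean of 56.2 ± 21.7 FPKM in PLKO against 59.01 ± 20.7 in KD, and Gm10222 had a mean of 28.5 ± 14.4 FPKM in PLKO against 28.1 ± 8.75 in KD. The median log2 fold change was -0.19 for the 5 and 0.12 for the 7.

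Among the 71 nuclear subunit genes 29 log2 fold changes were above 0 and 42 below, with a median of -0.04, equal to that of all tested genes at this rounding. None of the 71 passed the limma test, and 5 had an unadjusted p under 0.05 with KD higher and 8 with KD lower (18.3%, against 27.6% of all tested genes). voom called 1, Ndufs1. The complexes differed in where their members lay: the median was -0.14 for complex I, 0.16 for complex III, 0.21 for complex IV and -0.01 for complex V. Without both libraries numbered 3 these medians were -0.05, 0.35, 0.37 and 0.12. Leaving out 1 library moved them too. For complex I the median ran from -0.29 without PLKO 1 to -0.05 without KD 3. For complex III it was -0.03 without PLKO 1, -0.00 without KD 1 and 0.32 without KD 3. For complex IV it ran from 0.09 without PLKO 1 to 0.31 without KD 3, and for complex V from -0.13 without PLKO 1 to 0.09 without PLKO 2. The differences between complexes were not tested.

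**Figure D2:**
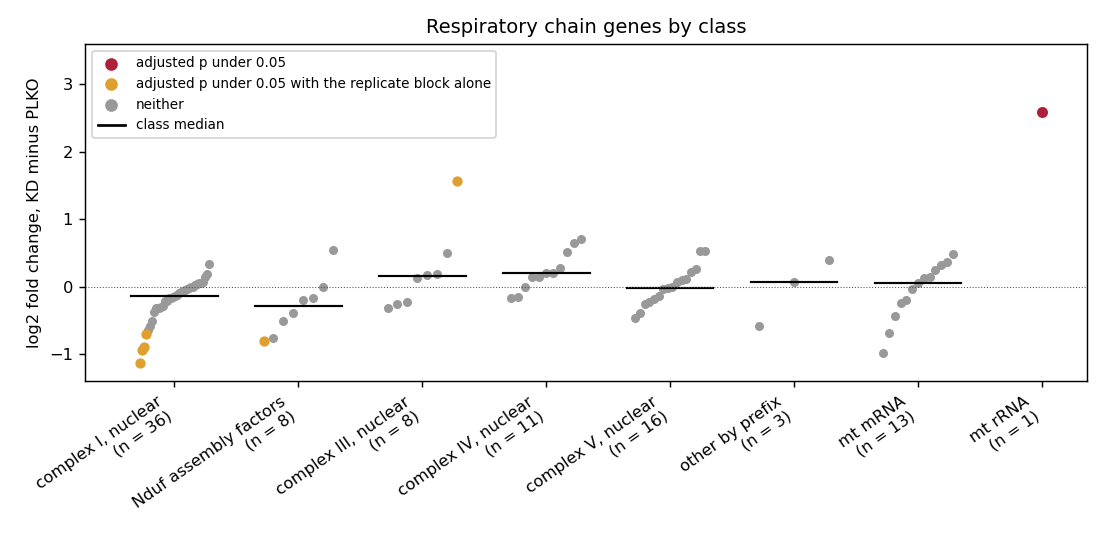
Log2 fold change (KD minus PLKO) of each member by class, 1 point per gene, with the number of genes per class under the axis. mt-Rnr2, at 2.59, stands above every other member, and 27 of the 36 points of complex I lie below 0.

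In complex I, the entry point for electrons from NADH, 9 of 36 members had log2 fold changes above 0 and 27 below, where 47.7% of all tested genes were above 0. For 9 members every KD library lay below every PLKO library, and for 0 the reverse held, while 18.8% of all tested genes had KD lower without overlap. Ndufs1, the iron-sulfur subunit that carries electrons away from the flavin, had 14.2, 18.7 and 15.7 FPKM in PLKO 1, 2 and 3 and 5.96, 6.68 and 9.99 FPKM in KD 1, 2 and 3. The groups were well apart, with KD 3 the closest to the controls. The log2 fold change was -1.13 (SE 0.25, interval -1.70 to -0.56), a 2.19-fold lower level, with a limma adjusted p of 0.0502, just above the threshold of 0.05. In the fit with the replicate block the p was 0.00842, and it was 0.0499 with voom and 0.00562 without both libraries numbered 3. Ndufs1 was called in 7 of 17 fits, and its log2 fold change ran from -1.37 to -0.98 over them.

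Ndufs4, an accessory subunit of the matrix arm, had 15.7, 18.5 and 18.4 FPKM in PLKO 1, 2 and 3 and 8.02, 9.35 and 11.2 FPKM in KD 1, 2 and 3. The highest KD library lay below the lowest PLKO library (log2 fold change -0.89, SE 0.21, limma adjusted p = 0.0579, and 0.0156 with the block). Ndufb10, of the membrane arm, had 43.2, 80.6 and 52.8 FPKM in PLKO 1, 2 and 3 and 27.9, 31.7 and 29.96 FPKM in KD 1, 2 and 3. The KD values were tight and all below the PLKO values, among which PLKO 2 was high (log2 fold change -0.93, SE 0.25, adjusted p = 0.0669, block 0.0161). Ndufc1, a small membrane subunit, had 25.3, 36.2 and 30.1 FPKM in PLKO and 15.9, 21.8 and 18.3 FPKM in KD, again without overlap (log2 fold change -0.71, adjusted p = 0.0903, block 0.0351). Ndufs4, Ndufb10 and Ndufc1 were called in 4, 3 and 1 of 17 fits.

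Ndufa5, Ndufa9 and Ndufa13 had differences on the log2 scale of -0.65, -0.58 and -0.51 (limma adjusted p = 0.0923, 0.105 and 0.141), and Ndufa7 and Ndufs3 make up the 9 without overlap (log2 fold change -0.38 and -0.30). These 5 were named because their groups do not overlap, after their values were seen. At the other end, Ndufa8 had a mean of 86.2 ± 9.49 FPKM in PLKO against 109.6 ± 19.4 in KD (log2 fold change 0.34, interval -0.14 to 0.81) and Ndufa1 had a mean of 70.2 ± 16.2 FPKM in PLKO against 81.00 ± 20.9 in KD (log2 fold change 0.19, interval -0.41 to 0.79). Ndufv1 and Ndufv2, which bind NADH and pass its electrons on, lay at -0.17 and -0.15 on the log2 scale, at adjusted p of 0.708 and 0.712 by limma. Both were chosen for their role after their values were seen.

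Of the 8 Nduf assembly factors, 1 had a log2 fold change above 0 and 7 below, where 47.7% of all tested genes were above 0. Their median was -0.29, and the limma test called 0. Ndufaf5, which modifies a core subunit of complex I, had 14.6, 34.5 and 20.1 FPKM in PLKO and 12.3, 14.1 and 11.02 FPKM in KD. PLKO 2 was far above the other controls, and PLKO 1 barely above KD 2 (log2 fold change -0.80, SE 0.31, limma adjusted p = 0.138, block 0.0369). Ndufaf2, which acts late in assembly, had 5.88, 12.5 and 6.28 FPKM in PLKO and 5.54, 5.19 and 3.29 FPKM in KD, close to touching between PLKO 1 and KD 1 (log2 fold change -0.76, adjusted p = 0.189). Ndufaf1, an early factor of the membrane arm, ran the other way with 6.33, 6.02 and 7.23 FPKM in PLKO and 10.7, 8.83 and 8.999 FPKM in KD (log2 fold change 0.54, adjusted p = 0.135), without overlap. Ndufaf7, a methyltransferase, had a mean of 6.101 ± 0.376 FPKM in PLKO against 6.098 ± 0.368 in KD (log2 fold change 0.00). At an unadjusted p under 0.05 there were 1 higher (Ndufaf1) and 1 lower (Ndufaf5), which is 25% against 27.6% of all tested genes. The groups did not overlap for 1 factor with KD higher and 3 with KD lower (50%, against 32.1% of all tested genes). voom called 0.

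In complex III, which passes electrons from ubiquinol to cytochrome c, 5 of 8 members were above 0 and 3 below, and 0 passed the limma test. Uqcrh, the hinge protein next to cytochrome c1, had 36.8, 18.2 and 87.5 FPKM in PLKO 1, 2 and 3 and 114, 127 and 107 FPKM in KD 1, 2 and 3. The KD libraries were alike and all above the controls, while the controls spread widely, from PLKO 2 at the bottom to PLKO 3 near the KD level. The log2 fold change was 1.57 (SE 0.47, interval 0.50 to 2.65). The limma adjusted p was 0.0828, 0.0121 with the block and 0.00438 without both libraries numbered 3 (log2 fold change 2.22). Over 17 fits it was called in 4 and ran from 1.03 to 2.22. Uqcrfs1, the Rieske iron-sulfur protein, had 84.9, 89.9 and 98.2 FPKM in PLKO and 145, 143 and 103 FPKM in KD, with KD 3 just above PLKO 3 (log2 fold change 0.50, adjusted p = 0.158). Uqcrc1, a core subunit without a redox centre, had a mean of 45.8 ± 8.29 FPKM in PLKO against 36.7 ± 2.697 in KD (log2 fold change -0.31). Uqcrq, a small subunit beside cytochrome b, had 43.2, 95.2 and 31.01 FPKM in PLKO and 52.2, 51.4 and 27.9 FPKM in KD, with PLKO 2 above all others (log2 fold change -0.26, interval -1.20 to 0.68). At an unadjusted p under 0.05, 2 were higher (Uqcrh and Uqcrfs1) and 0 lower (25%, against 27.6% of all tested genes). The groups did not overlap for 2 members with KD higher and 1 with KD lower (37.5%, against 32.1% of all tested genes). voom called 0.

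In complex IV, cytochrome c oxidase, 8 of 11 members were above 0 and 3 below. The limma test, voom and the block called 0. At an unadjusted p under 0.05 there were 3 (27.3%, against 27.6% of all tested genes), all higher. Those 3 did not overlap between the groups (27.3% of the members, against 32.1% of all tested genes in either direction). Ndufa4, once counted with complex I and now placed with complex IV, had 61.8, 62.4 and 74.1 FPKM in PLKO 1, 2 and 3 and 135, 121 and 75.5 FPKM in KD 1, 2 and 3. KD 1 and KD 2 lay far above the controls and KD 3 at the level of PLKO 3 (log2 fold change 0.70, SE 0.25, limma adjusted p = 0.116). Without both libraries numbered 3 its log2 fold change was 1.04 (adjusted p = 0.01204). Cox7a2 had 54.2, 79.96 and 82.7 FPKM in PLKO and 108, 118 and 109 FPKM in KD (log2 fold change 0.65, adjusted p = 0.103), with PLKO 1 below all the rest. Cox6b1, which faces the intermembrane space, had 92.8, 104 and 136 FPKM in PLKO and 148, 168 and 153 FPKM in KD (log2 fold change 0.51, adjusted p = 0.153). It was named because it is the third gene without overlap, after its values were seen. Cox6a1 and Cox8a, the 2 smallest log2 fold changes at -0.17 and -0.16, were abundant, with a mean of 327 ± 52.8 FPKM in PLKO against 288 ± 18.6 in KD for Cox6a1 and a mean of 345 ± 38.1 FPKM in PLKO against 309 ± 19.8 in KD for Cox8a. Cox4i1, the general form of the subunit that binds ATP, had a mean of 312 ± 43.3 FPKM in PLKO against 359.8 ± 47.2 in KD (log2 fold change 0.21). The isoforms Cox4i2, Cox6a2, Cox6b2, Cox7a1, Cox8b, Cox8c and Ndufa4l2 were not analysed here. Cox7a2l, which joins complexes III and IV, had a mean of 101 ± 15.2 FPKM in PLKO against 135 ± 28.3 in KD (log2 fold change 0.40, adjusted p = 0.273).

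In complex V, ATP synthase, 7 of 16 members were above 0 and 9 below. The limma test, voom and the block called 0, and 1 (Atp5h) had an unadjusted p under 0.05 (6.25%, against 27.6% of all tested genes). Atp5h, of the peripheral stalk, had 61.7, 80.3 and 71.1 FPKM in PLKO and 48.4, 54.2 and 51.1 FPKM in KD, all KD values below the controls (log2 fold change -0.46, SE 0.19, limma adjusted p = 0.158). Atp5a1, the alpha subunit of the catalytic head, had 301, 444 and 378 FPKM in PLKO and 259.5, 288 and 299.6 FPKM in KD, with KD 3 just under PLKO 1 (log2 fold change -0.39, adjusted p = 0.254). At the upper end were 2 small membrane subunits. Atp5mpl had a mean of 36.98 ± 9.37 FPKM in PLKO against 52.5 ± 8.14 in KD (log2 fold change 0.53) and Atp5k had a mean of 30.5 ± 8.97 FPKM in PLKO against 43.7 ± 10.3 in KD (log2 fold change 0.53), their groups overlapping through KD 3. Without both libraries numbered 3 they stood at 0.81 and 0.96 (limma adjusted p = 0.0445 and 0.0144). The 3 genes for the proton-carrying ring, Atp5g1, Atp5g2 and Atp5g3, encode the same mature protein. Their log2 fold changes were -0.13, -0.23 and 0.23, and their PLKO means 17.00, 95.95 and 87.2 FPKM, with a near-identical copy annotated for Atp5g1. Copies at 95% identity or more were annotated for 7 of the 82 nuclear members, among them Ndufs3 but none of the genes called with the block.

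**Figure D3:**
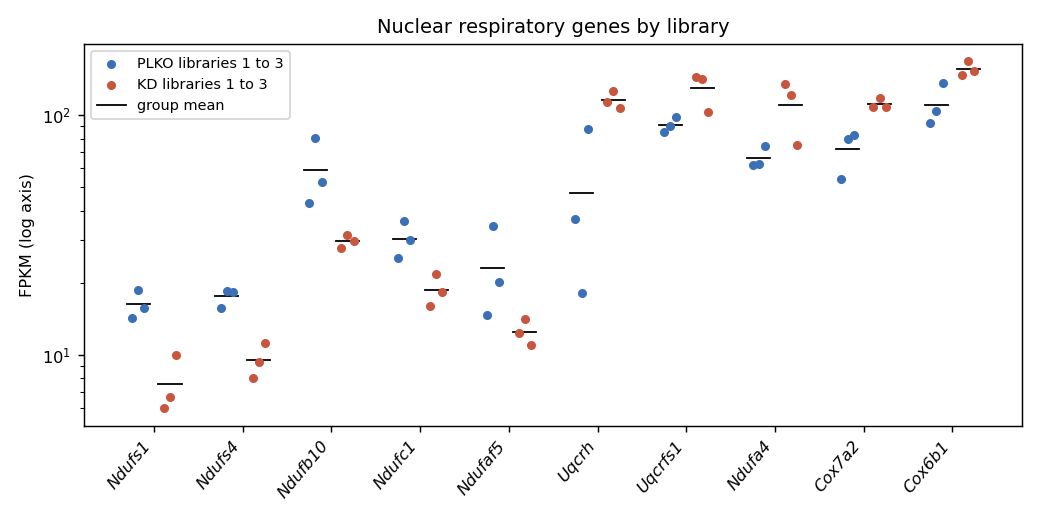
FPKM (log axis) of the named nuclear members in the 3 PLKO and 3 KD libraries, 1 point per library. The KD points of Ndufs1, Ndufs4, Ndufb10 and Ndufc1 lie below the PLKO points, and those of Uqcrh, Ndufa4, Cox7a2 and Cox6b1 above.

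Between the genomes, the balance differed more among libraries of 1 group than between groups. The mean log2 FPKM of the 71 nuclear subunit genes was 5.32, 5.65 and 5.59 in PLKO 1, 2 and 3 and 5.49, 5.60 and 5.33 in KD 1, 2 and 3. That of the 7 mitochondrial mRNAs without a whole copy (mt-Atp8 set aside) was 10.76, 10.66 and 11.20 in PLKO and 10.64, 11.24 and 11.07 in KD. The mitochondrial minus the nuclear mean was 5.44, 5.01 and 5.61 in PLKO and 5.15, 5.63 and 5.74 in KD. Its group means of 5.35 ± 0.310 and 5.51 ± 0.313 (SD, n = 3 each) lay closer together than the lowest and highest library of either group. The 13 mRNAs took 2.33%, 1.93% and 2.84% of the recovered reads in PLKO and 2.27%, 3.10% and 2.80% in KD, and the 71 nuclear genes 0.885%, 1.03% and 0.977% in PLKO and 0.936%, 0.965% and 0.849% in KD. Both pairs of ranges overlapped.

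Single libraries were high or low for most genes of a genome at once. Of the 71 nuclear genes, 55 were lowest of their group in PLKO 1 and 45 in KD 3, and 42 were highest in KD 2. Of the 13 mitochondrial mRNAs, 11 were lowest in PLKO 2 and all 13 in KD 1, and 10 were highest in PLKO 3 and in KD 2 alike. PLKO 2 was thus high for the nuclear genes, 37 of which were highest of their group there against 33 in PLKO 3, and low for the mitochondrial ones. By complex, the mean log2 FPKM in PLKO 1, 2 and 3 and KD 1, 2 and 3 was 4.81, 5.16, 5.04, 4.76, 4.93 and 4.66 for complex I. For complex III it was 5.79, 6.13, 6.09, 6.35, 6.36 and 5.96, and for complex IV 6.27, 6.52, 6.59, 6.75, 6.80 and 6.52. For complex V it was 5.58, 5.92, 5.90, 5.82, 5.91 and 5.69. In no complex did the library means of the 2 groups separate, since KD 3 fell within the PLKO range for complexes III and IV, PLKO 1 within the KD range for complex I, and every KD library within the PLKO range for complex V. Between libraries of the same number, KD minus PLKO was -0.05, -0.23 and -0.37 for complex I. It had both signs for the others, at 0.56, 0.24 and -0.13 for complex III, 0.48, 0.28 and -0.07 for complex IV and 0.24, -0.01 and -0.21 for complex V. No label gives this pairing. Were PLKO 1 set against KD 2 instead, complex I would be higher in KD (4.81 and 4.93), so its single sign depends on the pairing. Against the same 7 mRNAs, mt-Rnr2 stood at log2 differences of -2.39, -2.67 and -1.64 in PLKO and 0.81, 0.28 and -0.36 in KD, which did separate.

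**Figure D4:**
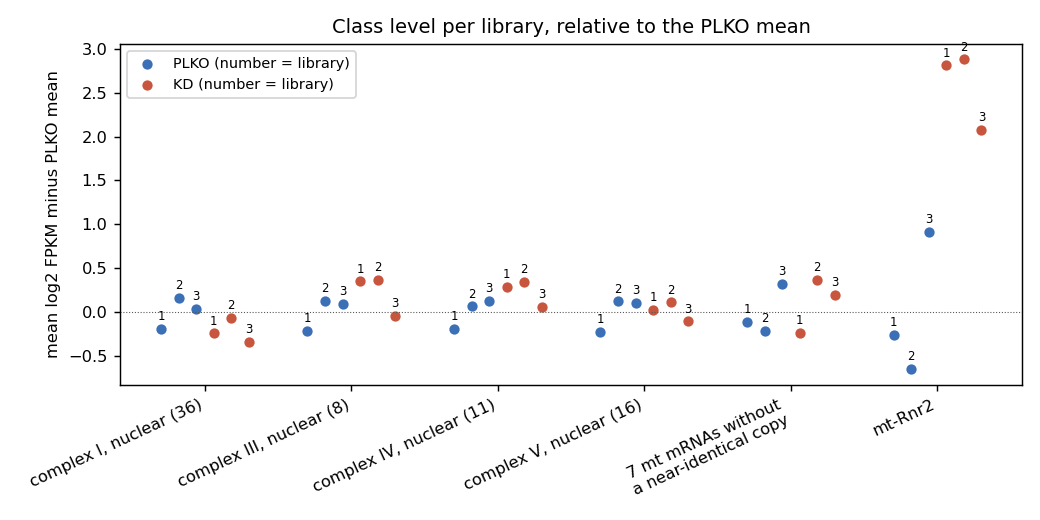
Mean log2 FPKM of each class minus its PLKO mean, 1 point per library, with mt-Rnr2 at the right. The KD points lie below 0 for complex I and above 0 for complex IV. They fall on both sides of 0 for complexes III and V and for the 7 mitochondrial mRNAs plotted. In each of these classes the ranges of the groups overlap, while the KD points of mt-Rnr2 lie above its PLKO points.

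Across the 71 nuclear subunit genes, the log2 fold change was weakly related to exonic length (Spearman's rho -0.30, n = 71 genes that share libraries), while over 10523 tested genes with a gene model rho was 0.08. This is a description across genes, which are not independent replicates.

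Genes outside the rule that serve the same chain were taken from lists of their pathways. Of 89 such genes tested, 5 fell in KD (5.62%) and 0 rose (limma adjusted p under 0.05), where 1.79% of all tested genes fell. The lists of ubiquinone synthesis and of the mitochondrial membranes, given at the end, are not among the 89. With them, 5 of 118 genes fell (4.24%). Complex I assembly factors outside the Nduf symbols had a median of -0.46, with 6 of 9 tested below 0. Timmdc1, which helps build the membrane arm, had 19.2, 18.8 and 13.6 FPKM in PLKO and 8.08, 6.44 and 7.03 FPKM in KD (log2 fold change -1.25, SE 0.22, limma adjusted p = 0.0372, and 0.0516 by voom). Nubpl, an iron-sulfur carrier for complex I, had a log2 fold change of -1.26 (adjusted p = 0.0791, and 0.0254 with the block). Those of Acad9 and Ecsit were -0.69 and -0.62 (adjusted p = 0.113 and 0.206). Of 8 complex II genes, 1 fell: Sdhaf2, which attaches the flavin to Sdha, had 15.5, 17.02 and 11.7 FPKM in PLKO and 5.78, 7.11 and 7.36 FPKM in KD (log2 fold change -1.12, limma adjusted p = 0.0435). Sdhd, a membrane anchor, had a log2 fold change of 0.68 (adjusted p = 0.0911, block 0.0477). Of 17 tested complex IV assembly genes, 13 were below 0 and 1 fell: Cmc2, with 14.4, 12.1 and 12.6 FPKM in PLKO and 6.201, 7.35 and 6.36 FPKM in KD (log2 fold change -0.97, limma adjusted p = 0.0445, and 0.0658 by voom). Cox14, Coa3 and Coa6 had log2 fold changes of -0.97, -0.71 and -0.96, at adjusted p of 0.0595, 0.06302 and 0.0719. With the block these were 0.0105, 0.0339 and 0.0159, and 5 of the 17 were called lower, where 11.1% of all tested genes were. Timmdc1 and Cmc2 were called in 12 and 11 of 17 fits, and Sdhaf2, whose reads were not recovered for voom, in 11 of 16. Without PLKO 1, PLKO 2, KD 1 or KD 2 they were not called, like every other gene.

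Among 17 tested genes of mitochondrial RNA processing, polyadenylation and decay, 10 were above 0 and 7 below, and 2 fell. Pnpt1, the polynucleotide phosphorylase that degrades mitochondrial RNA, had 18.7, 25.5 and 15.1 FPKM in PLKO 1, 2 and 3 and 6.45, 7.52 and 10.6 FPKM in KD 1, 2 and 3. Rexo2, an exonuclease that clears short RNA, had 21.04, 29.8 and 16.6 FPKM in PLKO 1, 2 and 3 and 9.303, 10.9 and 9.59 FPKM in KD 1, 2 and 3. In both, every KD library lay below every PLKO library. The log2 fold changes were -1.27 and -1.14 (SE 0.27 and 0.25, limma adjusted p = 0.0481 and 0.0486), called in 11 and 10 of 17 fits. Neither was called without PLKO 1, PLKO 2, KD 1 or KD 2, or by voom (adjusted p = 0.0514 and 0.0536), which called 0 of the 16 genes of this list with recovered reads. Grsf1, a protein of mitochondrial RNA granules, had a log2 fold change of 0.87 (adjusted p = 0.0697, block 0.0233), and Lrpprc, which stabilises mitochondrial mRNAs, had one of -0.89 (adjusted p = 0.1001, block 0.0354). These values stand beside that of mt-Rnr2, and any part of these genes in it was not tested.

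Of 16 genes of mitochondrial transcription and replication 0 passed the limma test, and 0 of 15 with recovered reads voom. At an unadjusted p under 0.05, 1 was higher and 1 lower (12.5%, against 27.6% of all tested genes). Tfb1m, which methylates the small mitochondrial rRNA, had a mean of 2.13 ± 0.603 FPKM in PLKO against 0.886 ± 0.328 in KD (log2 fold change -1.29, adjusted p = 0.0922, block 0.0364). Tfb2m, needed to start transcription, had a mean of 12.03 ± 2.69 FPKM in PLKO against 19.1 ± 3.03 in KD (log2 fold change 0.68, adjusted p = 0.107). Tefm and Top1mt had log2 fold changes of -0.79 and -0.84 (adjusted p = 0.1899 and 0.187). Of 10 tested nuclear regulators 0 passed the limma test, and 0 of 8 with recovered reads voom, with 1 higher and 1 lower at an unadjusted p under 0.05. Yy1 had 44.2, 57.2 and 46.5 FPKM in PLKO and 22.99, 28.2 and 40.6 FPKM in KD, all KD values below the controls (log2 fold change -0.72, adjusted p = 0.1102, block 0.0482). Gabpa, a subunit of GABP, Nrf1 and Hcfc1, a cofactor, had log2 fold changes of 0.34, -0.35 and 0.62 (adjusted p = 0.306, 0.333 and 0.134). Of 8 tested genes of cytochrome c and of complex III outside the rule 0 passed limma, and 0 of 7 with recovered reads voom, and 2 were lower at an unadjusted p under 0.05. Ttc19, which clears fragments from complex III, had a log2 fold change of -0.76 (adjusted p = 0.0791, block 0.0377). Cyc1 (cytochrome c1) and Cycs (cytochrome c) had -0.24 and 0.06. Of 5 genes of complex V assembly and inhibition 0 passed limma or voom, and 2 were lower at an unadjusted p under 0.05 (40.0%, against 27.6%). They were Atpaf1, a chaperone of the catalytic head (log2 fold change -1.16, adjusted p = 0.0585, block 0.0163), and the inhibitor Atpif1 (log2 fold change -0.63, adjusted p = 0.155).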

How the data were processed

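Poly(A) RNA of 6 libraries was compared, 3 KD against 3 PLKO, grouped by their labels. The authors deposited 1 table of log2 FPKM values, a unit read from the values themselves. The submitters' processing notes name GRCm38 as the build and FastQC 0.11.7 among the tools. Not given in the sources used here are the aligner, counter, strand use and row filter. The values hold a prior of about 2 reads per library, so fold changes of low genes are understated. Reads were recovered from the steps of the values and gene lengths of GENCODE M21 (tolerance 0.01 reads). They came out whole in 10969 of 11564 matched genes (94.9%) and in all 96 members.

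The test was limma 3.58.1 (R 4.3.3) (mean-variance trend) on the scale as deposited, for the 10770 genes with a mean of at least 1 FPKM, with Benjamini-Hochberg adjustment over all of them and a threshold of 0.05. FPKM are powers of 2 of the deposited values. The model held the group alone. Alternatives were another log scale, no filter, 3 scalings, the replicate block, array weights, no trend, libraries left out and, added later, voom. The fit was tested on simulated data. Same-numbered libraries correlated in their deviations from the group means at 0.18, 0.29 and 0.50, above the limit of 0.1, so the numbers were taken as pairs. This pairing comes from the data. PLKO 2 with KD 1 and PLKO 1 with KD 2 also correlated, at 0.30 and 0.27. The check therefore cannot tell which of the libraries numbered 1 and 2 belong together, and the p-values of the replicate block carry that limit.

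Members and lists were chosen with earlier results of these data known. Named genes are those called in either fit, the 2 highest and 2 lowest log2 fold changes of each class, all mitochondrial mRNAs and rRNAs, isoforms, and up to 4 genes per pathway list with the lowest adjusted p. Cyc1, Cycs, Cs and the cell type markers were named for their roles after their values were seen. Copies were sought with blastn among GENCODE M21 transcripts, and coordinates are 1-based.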

Additional observations from a re-analysis of the deposited data

How the results depend on the processing

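Counts of called genes moved most. Against 121 higher and 193 lower, the fit with the replicate block, which takes equal numbers as pairs, called 882 and 1198, array weights 2904 and 3126, and the fit without a variance trend 66 and 85. Leaving out 1 replicate gave 0 to 733 higher and 0 to 1011 lower, with 0 without PLKO 1, PLKO 2, KD 1 or KD 2, 353 and 448 without PLKO 3, and 733 and 1011 without KD 3. Without both libraries numbered 3 the counts were 1286 and 1723. voom on recovered reads, chosen after seeing the data, called 109 lower. Of the 96 respiratory chain genes, 1 higher and 0 lower became 2 and 5 with the block, 38 and 7 with array weights, 6 and 3 without both libraries numbered 3, and 0 to 2 and 0 to 2 leaving out 1 replicate. On the log2(FPKM + 1) scale and by voom 1 was lower. The log2 fold change of mt-Rnr2 was 2.26 to 3.05 leaving out 1 replicate, without the call in 4 of the 6 fits. The median of the mitochondrial mRNAs was -0.19 to 0.21 in those fits. The estimation of array weights stopped before it converged. KD 2 had 93.1% of the weight, and in PLKO the largest share was that of PLKO 1 (4.035%). Array weights moved the medians to 0.11 (complex I), 0.49 (complex III), 0.28 (complex V) and 0.39 (mitochondrial mRNAs). They also turned mt-Nd6 to 0.40, Atp5j2 to 0.40, Cox5a to 0.38, Atp5o to 0.37, Ndufb9 to 0.48 and mt-Atp8 to 2.45. The cause was not tested. Of the other values of single members over 16 alternatives, 1455 kept their side of the threshold and 59 newly passed it. Median centring, quantile normalization and no filter on low values changed no member's call. Depth limits mt-Atp8 most, with 2 reads in KD 1.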

Other observations

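Ubiquinone carries electrons from complexes I and II to complex III. Of 13 tested genes of its synthesis, 2 had log2 fold changes above 0 and 11 below, with a median of -0.38 against -0.04 over all tested genes. The limma test and voom called 0, and 5 had an unadjusted p under 0.05, all lower (38.5%, against 27.6% of all tested genes). With the replicate block 3 were called lower, where 11.1% of all tested genes were. Coq5, a methyltransferase of the ring, had 15.8, 20.8 and 11.6 FPKM in PLKO and 8.42, 8.59 and 8.28 FPKM in KD, and the groups did not overlap (log2 fold change -0.89, limma adjusted p = 0.0704, block 0.0208). Coq4 had 3.43, 6.02 and 3.75 FPKM in PLKO and 1.44, 2.06 and 2.03 FPKM in KD, again without overlap (log2 fold change -1.23, adjusted p = 0.0626, block 0.0122). Coq8b, an atypical kinase, had 4.53, 6.69 and 4.06 FPKM in PLKO and 1.35, 1.68 and 3.42 FPKM in KD, with KD 3 closest to the controls (log2 fold change -1.33, adjusted p = 0.0777, block 0.0189). Pdss1, which builds the side chain, had a log2 fold change of -0.74 (adjusted p = 0.103, block 0.06602).

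Of 16 genes of the mitochondrial membranes and matrix taken as a gauge of mitochondrial content, 7 were above 0 and 9 below, with a median of -0.22. The limma test, voom and the block called 0. At an unadjusted p under 0.05 there were 2, 1 in each direction (12.5%, against 27.6% of all tested genes). The outer membrane channels Vdac1 and Vdac3 stood at log2 differences of 0.41 and -0.65 (limma adjusted p = 0.179 for both), and in each the groups did not overlap. Cs, citrate synthase, had a mean of 47.3 ± 15.1 FPKM in PLKO against 60.2 ± 11.8 in KD (log2 fold change 0.38, adjusted p = 0.388).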
